A study of Homo sapiens with 10 samples.

Results

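The regions described here are the HER2 peaks that were called in BT474 cells after EGF and in no other HER2 list of the study. They are the peaks of the BT474 EGF list that shared not even 1 bp with a peak of BT474 after vehicle, of SKBR3 after vehicle or of SKBR3 after EGF. There were 20353 such peaks of 29326 in the list, or 69.4% (95% Wilson interval 68.9 to 69.9), and the remaining 8973 are called the other peaks below. HER2 was mapped by ChIP-exo, in which an exonuclease trims the immunoprecipitated DNA towards the bound protein, with 1 list per cell line and treatment. BT474 and SKBR3 are human breast cancer cell lines in which ERBB2, the gene of HER2, is amplified. Both were grown asynchronously and received either vehicle (water) or EGF at 100 ng/ml for 3 h, and both carry the amplification, so no list comes from cells with normal HER2 levels. The other lists held 8559 peaks in BT474 after vehicle, 2596 in SKBR3 after vehicle and 2520 in SKBR3 after EGF. H3K4me1, a histone mark of enhancers, was mapped by ChIP-seq in both lines with 2 replicates each, in cells that the labels call asynchronous and the study's text calls EGF-treated. Since each HER2 condition has 1 list without a replicate, neither the effect of EGF nor that of the cell line can be separated from a difference in depth or efficiency between libraries, and the HER2 libraries' depth is not known from the lists.

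HER2 is a receptor tyrosine kinase of the EGF receptor family and is encoded by ERBB2. EGF binds EGFR, whose kinase then phosphorylates tyrosines in its own tail and in partner receptors, and adaptor proteins docked there pass the signal on. A fraction of the full-length receptor has been described in the nucleus, and mapping it on chromatin asks which genes it may contact directly.

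The sequences that the results below turn on are printed here from GRCh37, plus strand, at most 300 bases around the midpoint of the peak. The first is the peak of highest score, 4.75 kb from RXRG (chr1:165419188-165419487, peak chr1:165419184-165419491). It holds neither the core motif described below nor a simple repeat of 20 bp, and so has no capitals.
RXRG: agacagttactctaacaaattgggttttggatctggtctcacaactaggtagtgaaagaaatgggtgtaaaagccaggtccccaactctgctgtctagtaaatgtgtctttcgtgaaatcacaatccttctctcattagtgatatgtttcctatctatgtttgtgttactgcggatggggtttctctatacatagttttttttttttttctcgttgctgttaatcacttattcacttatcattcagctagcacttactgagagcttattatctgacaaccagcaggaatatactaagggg
Capitals mark the core CGTNTGC in the next stretch. The stretch in an intron of ANO2 (chr12:6038882-6039181) is from the highest-scoring peak with any form of the core within 50 bp of the midpoint. It carries CGTCTGC 2 times in the stretch shown, with nearly the same bases around both copies, and no CGTATGC.
ANO2: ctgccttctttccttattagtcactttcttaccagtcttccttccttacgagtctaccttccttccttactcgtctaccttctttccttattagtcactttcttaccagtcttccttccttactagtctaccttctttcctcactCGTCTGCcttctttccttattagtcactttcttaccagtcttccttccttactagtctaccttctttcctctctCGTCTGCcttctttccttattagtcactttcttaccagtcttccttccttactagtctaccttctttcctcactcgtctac
Capitals mark the simple repeat in the next pair. The peak 4.78 kb from DUSP12 (chr1:161714617-161714916) was the highest with a simple repeat, a run of 20 bp of which the 15 bp inside the stretch are shown.
DUSP12: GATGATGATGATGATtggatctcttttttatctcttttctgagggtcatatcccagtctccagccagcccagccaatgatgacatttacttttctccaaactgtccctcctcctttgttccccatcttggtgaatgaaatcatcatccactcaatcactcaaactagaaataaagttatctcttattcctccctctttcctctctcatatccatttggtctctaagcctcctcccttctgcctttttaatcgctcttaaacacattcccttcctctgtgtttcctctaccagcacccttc
The peak 28.3 kb from MCM5 (chr22:35849610-35849909) was the highest with a repeat of the unit AG, here 29 bp, and was added after the units had been counted.
MCM5: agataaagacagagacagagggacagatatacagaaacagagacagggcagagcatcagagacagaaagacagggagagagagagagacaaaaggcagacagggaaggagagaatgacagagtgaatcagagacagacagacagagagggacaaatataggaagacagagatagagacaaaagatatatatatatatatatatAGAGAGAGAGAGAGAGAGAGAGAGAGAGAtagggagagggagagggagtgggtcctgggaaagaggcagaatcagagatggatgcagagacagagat
The last stretch (chr2:232651663-232651962) lies 831 bp upstream of a start site of PDE6D and inside an intron of COPS7B. It is the highest-scoring peak in the promoter of a protein-coding gene with H3K4me1 in both BT474 replicates, and nothing in it is marked.
PDE6D: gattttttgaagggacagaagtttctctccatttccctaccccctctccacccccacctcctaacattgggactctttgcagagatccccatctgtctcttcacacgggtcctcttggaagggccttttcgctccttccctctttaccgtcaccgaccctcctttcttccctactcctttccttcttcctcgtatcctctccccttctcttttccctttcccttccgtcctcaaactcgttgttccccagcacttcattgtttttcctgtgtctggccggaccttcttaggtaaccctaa

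The members were chosen by being called in 1 list, so their scores, which come from that list, are given as a description. Their median score was 46.5 (quartiles 32.5 and 68.0), against 107 (62.5 and 185.5) for the other peaks. The highest score of a member was 388, at rank 414 of the list, while the other peaks reached 5150.5. No member was among the 100 highest peaks, 21 were among the first 1000, and 3037 were among the first 8559, the length of the vehicle list. With the list cut into 10 bins of equal size by score, members made up 40.1% of the bin below the highest and 89.9% of the lowest. They were narrower, with a median width of 229 bp against 288 bp, and 18% of members were exactly 200 bp wide, the width at which the list piles up, against 3.04% of the other peaks. Although they made up over 2 in 3 peaks, they held 46.2% of the summed score. The members were split at this median into 10072 upper members with scores of 47.0 to 388 and 10281 lower members with scores of 5.0 to 46.5, ties included. Of the lower members 32.0% were 200 bp wide, against 3.75% of the upper members.

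**Figure D1:**
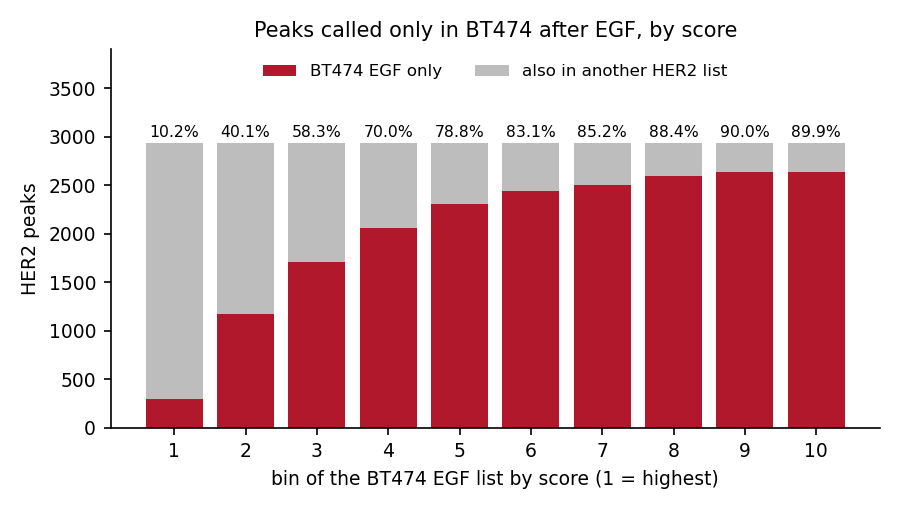
Number of HER2 peaks of BT474 after EGF (vertical axis) in each of 10 equal bins of the list by score (horizontal axis, 1 is the highest), split into peaks called only in this list (red) and peaks shared with another HER2 list (grey). The percentages give the share called only here, which runs from 40.1% in bin 2 to 89.9% in bin 10 and is lowest in bin 1.

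Most members were far from the limit of the rule. The median gap to the nearest peak of another list was 79.7 kb, and 282 members (1.39%) lay within 1000 bp of one. The 25 members under 100 bp from such a peak had a median score of 59.5, and the 5 other peaks that overlapped another list by at most 25 bp had one of 55.5. Of the other peaks, 7785 (86.8%) overlapped BT474 vehicle, 2110 (23.5%) overlapped SKBR3 EGF, and 1117 (12.4%) overlapped SKBR3 vehicle.

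Of the 10 members with the highest score, 7 had a protein-coding gene around them or within 100 kb. The first lay 4.75 kb from RXRG and the second (score 369, chr9:137403685-137404014) 71.4 kb from RXRA, both genes of retinoid X receptors, the nuclear receptors that pair with many others. The RXRG peak was 0.206 kb from a peak of another list, the RXRA peak 87.0 kb. Introns held the peaks of ICE1, a subunit of the little elongation complex (345), SP140, a chromatin reader of immune cells (335.5), TRIP13, an ATPase of the spindle checkpoint (332.5), and PGR, the progesterone receptor gene (329.5). The peak near DUSP12, a phosphatase gene, had a score of 326. The remaining 3, with scores of 324.5 to 329.5, had no protein-coding gene within 100 kb, and 1 of them lay in an intron of the non-coding SOX2-OT. Of these 10 peaks, those of ICE1 and PGR overlapped H3K4me1 in both BT474 replicates. The ICE1 peak did so in both SKBR3 replicates as well, and the PGR peak in neither. All 10 lay in sequence found once in the genome, as measured below.

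Most members lay in introns (55.3%, 95% Wilson interval 54.6 to 56.0) or between genes (35.6%, 35.0 to 36.3). Promoters, here taken as the 1 kb before any annotated transcription start, held 912 members (4.48%) and exons held 930 (4.57%). Among the other peaks 4.68% lay in promoters, a difference of -0.200 percentage points (95% Newcombe interval -0.733 to 0.311). Windows of the same width centred 10 kb to either side of each member lay in promoters in 4.30%, and the members exceeded them by 0.177 points (95% interval -0.157 to 0.511). The median distance to a protein-coding start site was 36.4 kb for members, 36.6 kb for the other peaks and 36.3 kb for the flanking windows. The upper members had 4.33% and the lower members 4.63% in promoters, a difference of -0.301 points (-0.870 to 0.268). With protein-coding genes alone this became -0.542 points (-0.997 to -0.0879), fewer promoters in the upper members. The share of G and C was 41.8% ± 7.97 (SD over 20353 members), and it was 40.8% in the upper members and 42.8% in the lower members.

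Promoters of protein-coding genes held 571 members, of which 148 (25.9%) lay in H3K4me1 of both BT474 replicates. Over all members this share was 9.67%, and promoters without a member were not compared. The highest-scoring of the 148 lay 831 bp upstream of PDE6D (176), which encodes a carrier of prenylated proteins such as RAS. Next came PLXND1, a semaphorin receptor, with 174.5 at 37 bp from the start site, and ZNF668, a zinc finger gene, with 166 at 546 bp. They were followed by TXNL1 (156.5), KCNMB3 (156), SPSB1 (145.5), a promoter shared by SCRT2 and an unnamed gene (132), CHKA (129), HRK (127.5) and MARK4 (125). CHKA encodes choline kinase, HRK a cell death activator of the BCL2 family and MARK4 a microtubule kinase. Of these 10 promoter peaks, those of ZNF668, TXNL1, CHKA and HRK overlapped H3K4me1 in neither SKBR3 replicate, and those of PLXND1, SPSB1 and MARK4 in both. The peaks of ZNF668 and SCRT2 contained the core motif.

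Of 20098 protein-coding genes, 7265 (36.1%) had a member in the body or within 10 kb of it, and 4838 of them had no other peak there. Genes with a member were long, with a median of 61.8 kb against 18.1 kb without, so that a list of long genes is reached more often. Over all protein-coding genes with their 10 kb margins, with or without a member, there were 7.37 members per Mb. Genes with a member that lay in H3K4me1 of both BT474 replicates numbered 1573 (7.83%). The gene lists below were chosen with earlier results of these data known, and their counts are given beside these shares without a test.

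In the EGF receptor family, ERBB4 had 7 members, the highest in an intron with a score of 182.5 (chr2:212787869-212788158), and ERBB3 had 1, in an intron with 134.5. EGFR had 3 other peaks and no member. ERBB2 had no peak of the list. The authors removed reads in regions of high input signal, and whether this amplified locus was among them was not tested. Of 11 genes of EGF family ligands, 4 had a member, and NRG3, a neuregulin, had 13 (highest score 184). TGFA had 2, the highest at 56.0, while AREG, EREG and HBEGF had none.

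Of 24 genes of the RAS-MAP kinase cascade, 10 had a member. SOS1, the exchange factor that loads RAS, had 4 (highest 120). Of 18 genes of the PI3K-AKT pathway, 9 had a member, led by RICTOR, the scaffold of mTOR complex 2 (155), and RPTOR, that of complex 1 (153). The list had 5.58 members per Mb, and the RICTOR peak lay in H3K4me1 of all 4 libraries. Of 9 protein kinase C genes, which with their margins span 2.41 Mb, 8 had a member, and the list held 12 members per Mb. Among them PRKCI had the highest score (145.5, 7.08 kb outside the gene), and PRKCH had 6. A list of JAK and STAT genes, which also holds SOCS3, had a member in 5 of 12.

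Of 16 immediate early genes, which respond to growth factors within minutes, 6 had a member, and 4 of these had one in H3K4me1 of both BT474 replicates. MYC had 2, the highest overlapping an untranslated region with a score of 162.5 (chr8:128753824-128754070). JUNB (72.5, at 6.72 kb), FOSL1 (47.5, at 3.02 kb) and EGR1 (32.5, at 4.10 kb) each had 1 outside the gene, and these, like that of MYC, lay in H3K4me1 of all 4 libraries. ATF3 and KLF6 had 1 each outside H3K4me1, while FOS, FOSB and IER2 had none. Together the 16 genes with their margins spanned 0.473 Mb and held 7 members, so the list's 14.8 members per Mb rests on few peaks. Genes of EGF feedback inhibitors had a member in 4 of 20, namely CBLB, NF1, CBL and RASA1. The dual specificity phosphatase and Sprouty genes of the list had none. CBLB and NF1 led with 78.5 each, and none of the 4 had one in H3K4me1 of both BT474 replicates.

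Of 13 genes of luminal transcription factors, 4 had a member. PGR had 1, TBX3 had 1 in an intron (21.5), ESR1, the estrogen receptor gene, had 3 (highest 44) and XBP1 had 1 at 4.80 kb (54.5). The PGR and TBX3 peaks both lay in H3K4me1 of both BT474 and neither SKBR3 replicate. FOXA1 and GATA3 had neither a member nor an other peak. Beside 36.1% of all protein-coding genes, the counts of these 9 lists ran from 4 of 20 feedback inhibitors to 8 of 9 protein kinase C genes. Between them stood 4 of 13 luminal factors, 4 of 11 ligands, 6 of 16 immediate early genes and 10 of 24 RAS-MAP kinase genes. So did 5 of 12 genes of the JAK and STAT list, 2 of 4 receptors and 9 of 18 genes of the PI3K-AKT pathway. Counted in the same way, an other peak was at 20.4% of all protein-coding genes. In these lists it was at 5 of 20 feedback inhibitors, 3 of 13 luminal factors, 4 of 11 ligands and 2 of 16 immediate early genes. It was also at 6 of 24 RAS-MAP kinase genes and 3 of 12 of the JAK and STAT list. For receptors it was 3 of 4, for PI3K-AKT genes 5 of 18 and for protein kinase C genes 7 of 9. Gene length differs between the lists, and none of these departures was tested.

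All 20 genes of a list of long cell adhesion and synapse genes had a member, but at 6.09 members per Mb, against 7.37 over all protein-coding genes. An other peak was at 19 of the 20. Of the 10 genes with the most members, DLG2, CNTNAP2, DMD and CNTN5 are in this list. DLG2, a synaptic scaffold gene, held 25 in 2.17 Mb, with scores up to 135.5, RBFOX1, a splicing regulator, held 23 in 2.47 Mb, and CNTNAP2, a neurexin family gene, held 19 in 2.30 Mb. Next came DLGAP1 with 18, PTPRN2, ASIC2 and DMD with 16 each, NLGN1 and CNTN5 with 14 each and CACNA1A, a calcium channel gene, with 13. CACNA1A was the densest of these 10, with 30.5 members per Mb, and held no other peak. Of the 10, CNTNAP2 had 4 members in H3K4me1 of both BT474 replicates and NLGN1 had 3, whereas RBFOX1, PTPRN2, ASIC2 and CACNA1A had none.

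The members were spread over the genome, and 92.3% of 3053 windows of 1 Mb held at least 1. The mean was 6.70 members per Mb, with 11.3 on chromosome 19, 8.99 on chromosome 18 and 8.41 on chromosome 7, down to 4.43 on chromosome 21. The other peaks were dense on the same 3 chromosomes, with 4.16, 4.09 and 4.61 per Mb against a mean of 2.96. The share of the list that was called only in BT474 EGF ranged from 64.1% (60.3 to 67.7) on chromosome 20 to 73.7% (70.8 to 76.4) on chromosome X. On chromosome 20, 22.3% of peaks overlapped a SKBR3 peak, against 9.91% in the list as a whole. Copy number differs between these aneuploid lines, and its part in these densities was not tested.

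**Figure D2:**
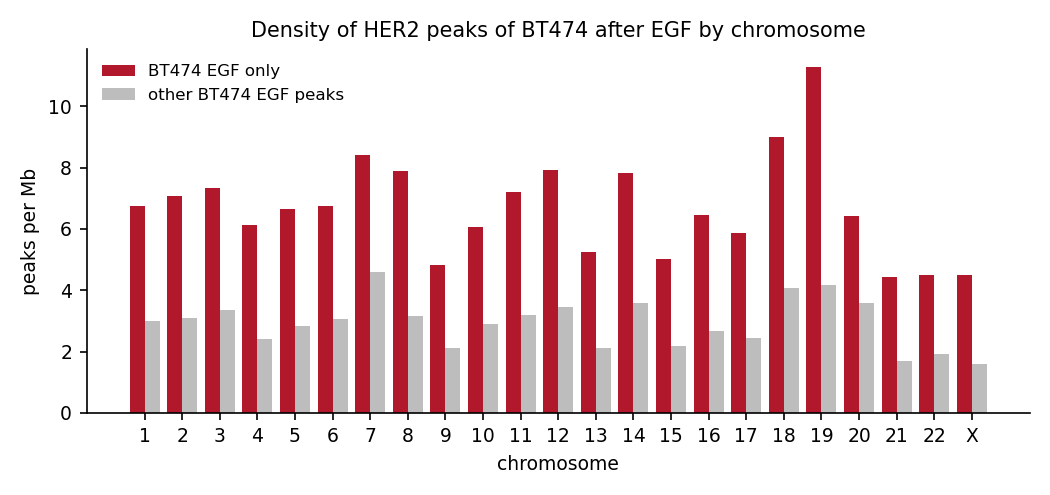
HER2 peaks of BT474 after EGF per Mb of chromosome (vertical axis) on each chromosome (horizontal axis), for peaks called only in this list (red) and the other peaks of the list (grey). Chromosome 19 is the densest for members, at 11.3 per Mb, and chromosome 21 the sparsest, at 4.43.

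The median distance from a member to the next was 43.0 kb, and 3278 members (16.1%) had another within 10 kb, against 93.4 kb and 8.50% for the other peaks among themselves. Members were 2.27 times as many, and in units of the mean spacing of each set the median gap was 0.288 for members and 0.276 for the other peaks. In these units the spacing of both sets was close. Chains of members at most 10 kb apart joined 2 members in 1343 cases, 3 in 156 and more than 3 in few, while 17075 members stood alone. The longest chain had 11 members over 33.2 kb at ARHGEF1 and ERFL on chromosome 19 (chr19:42410975-42444140), with a median score of 42.5 and 3 other peaks among them. The chain on chromosome X (chrX:30807324-30823992) had 8 members, 29.9 kb from TAB3, and 4 of the 8 held a simple repeat. Chains of 7 members lay at MEIS3, a homeobox gene (chr19:47911650-47931027), and 4.25 kb from EMC10 (chr19:50992150-51004596). A chain of 6 lay at MUCL3 and SFTA2 (chr6:30913872-30919788). Another of 6 lay on chromosome 18 (chr18:72838944-72871955), 51.6 kb from the nearest protein-coding gene. At MEIS3, 4 of the 7 members overlapped H3K4me1 of BT474, and at EMC10 and at MUCL3 none did.

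A simple repeat, here an unbroken tandem run of a unit of 1 to 6 bases that is at least 20 bp long and has at least 3 copies, touched 1094 members (5.38%). The flanking windows had 4.34%, and the members exceeded them by 1.03 points (95% interval 0.668 to 1.4). The other peaks had 5.66%, a difference of -0.286 points (-0.868 to 0.273), whose sign turned with the length asked for. With runs of at least 30 bp it was 0.530 points (0.178 to 0.860), more repeats in members, and with at least 15 bp it was -1.23 (-2.03 to -0.450). The upper members had 5.60% and the lower members 5.16%, a difference of 0.445 points (-0.175 to 1.07). With runs of at least 15 bp this was 1.20 points (0.356 to 2.04) and with members defined by 50% cover 0.652 (0.0301 to 1.28), both with intervals above 0.

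The units were unequal, a breakdown made after seeing the data. Runs of AG, counted on either strand and in any phase, touched 339 members (1.67%) and 0.101% of flanking windows, 16.5 times fewer, and the MCM5 stretch above is 1 of them. The other peaks had 1.39%, and the interval of the difference held zero (-0.0399 to 0.562 points). Runs of AGAT touched 0.432% of members, 0.223% of the other peaks and 0.0639% of flanking windows. Here members exceeded the other peaks by 0.209 points (0.0636 to 0.337). Runs of ACAG had 35.0 times their share in the flanks (0.172% against 0.00492%), and runs of ACAGAG touched 29 members and 0 of 40691 flanking windows, which allows a share of up to 0.00737%. The last unit was more frequent in the other peaks (0.379%). Runs of A went the other way, in 0.452% of members and 1.52% of flanking windows, as did AAAT (0.0884% and 0.295%). Runs of AC (1.01% and 0.668%) differed less, and AAAG did not differ from its flanks within the interval (-0.0692 to 0.0545 points).

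Among all words of 8 bases within 50 bp of the midpoint, GAGAGAGA had the largest excess over the flanks. It was present, on either strand, in 9.64% of members (95% Wilson interval 9.25 to 10.1) and 1.16% of flanking windows. The other peaks had 8.67%, and members exceeded them by 0.974 points (0.254 to 1.67). The word GGCATACA, chosen from the 20 words of largest excess because it is not a purine-rich repeat, was in 4.39% of members and 0.202% of flanking windows, 21.8 times as often, and in 6.11% of the other peaks (difference -1.71 points, -2.30 to -1.16). Upper and lower members differed in neither word within the intervals (-0.637, -1.45 to 0.174, for GAGAGAGA, and -0.264, -0.827 to 0.300, for GGCATACA). Words and sets of regions were chosen from the same counts, so these shares are a description.

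The core CGTNTGC, which the study derived from its HER2 peaks, was looked for, in either orientation, at up to 50 bp from the midpoint. It was in 1177 members (5.78%, 95% Wilson interval 5.47 to 6.11), 1.03% of flanking windows and 11.3% of the other peaks. Members exceeded their flanks by 4.76 points (4.42 to 5.09) and were below the other peaks by 5.54 points (interval of the difference -6.28 to -4.82). Within the 10 bins of the list by score the members' share was the lower in all 10, with a mean difference of -6.04 points (-6.90 to -5.18) weighted by both sets and -5.64 (-6.69 to -4.59) weighted by members. Along the members' scores it varied little, with 5.65% in the upper members and 5.91% in the lower (difference -0.264 points, -0.906 to 0.378). Since the study drew this motif from these peaks, its presence over the flanks is not independent of them.

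The 4 forms of the core, counted apart after seeing the data, were unequal as well. CGTATGC was in 2.81% of members, 0.103% of flanking windows and 7.37% of the other peaks. The forms CGTCTGC (0.870% of members, 0.814% of the other peaks), CGTGTGC (1.25% and 1.64%) and CGTTTGC (0.914% and 1.60%) differed less between both sets. Over their flanks these 3 forms stood 2.71 to 4.71 times higher in members and CGTATGC 27.3 times. The letters CGTATGC also occur in the public P7 adapter sequence. This protocol ligates a P7 adapter to the DNA on the beads, but the study does not give its sequence. The adapter's part in any of the 4 forms was not tested. The word GGCATACA, read on the other strand as TGTATGCC, shares the letters GTATGC with this form of the core. It has T where the core has C before these letters, so no single site is both. The adapter's part in this word was not tested either. At least 1 of GAGAGAGA, GGCATACA and the core was found in 19.5% of members, against 2.37% of flanking windows and 25.6% of the other peaks. The remaining 80.5% of members, the RXRG and PGR peaks among the highest, held none of the 3 near the midpoint.

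The core's place in the peak differed between upper and lower members. In the other peaks it was most frequent about 50 bp to either side of the midpoint, in 3.01% and 3.31% of peaks per 20 bp, and less so beside the midpoint (1.60% and 1.48%). The upper members had the same shape at a lower level, with 1.33% and 1.61% about 30 bp to either side and 0.864% and 0.933% beside the midpoint. In the lower members the core was most frequent beside the midpoint (1.62% and 1.51%). Within 20 bp of the midpoint, 1.54% of the upper and 2.88% of the lower members had it, a difference of -1.34 points (-1.75 to -0.939). In this window members and other peaks differed by -0.370 points (-0.769 to 0.00447), so the deficit of members seen within 50 bp was not present there beyond the interval. The midpoint stood in for the summit, which the list does not give, and upper and lower members also differed in median width (256 and 210 bp).

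**Figure D3:**
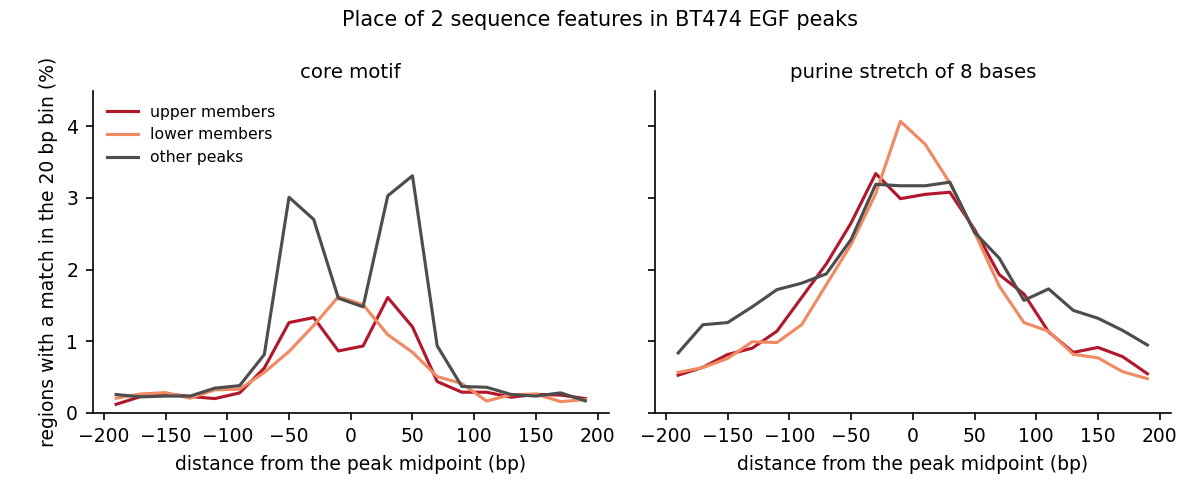
Share of peaks (vertical axis, percent) with the core (left) or with the purine stretch GAGAGAGA (right) in each 20 bp bin, against the distance from the peak midpoint in bp (horizontal axis), for the upper and the lower members and for the other peaks. The core has 2 maxima away from the midpoint, about 50 bp to either side in the other peaks (3.01% and 3.31%) and about 30 bp in the upper members (1.33% and 1.61%), and a single one beside the midpoint in the lower members (1.62%). The purine stretch is highest beside the midpoint in the lower members (4.07%) and stays between 2.99% and 3.34% within 40 bp of it in the other 2 sets.

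Whether reads could be placed was described by exact copies in the genome, a measure added after seeing the data. For 3 words of 30 bases, at the midpoint and 60 bp to either side, the copies on both strands were counted and the middle value was taken. Of members, 93.9% had 1 copy, and 1240 (6.09%, 95% Wilson interval 5.77 to 6.43) had at least 2. The flanking windows had 12.5% with at least 2, a difference of -6.41 points (-6.86 to -5.96), and the other peaks 4.73% (members higher by 1.37 points, 0.808 to 1.91). The lower members had 6.89% and the upper members 5.28% (-1.61 points, -2.26 to -0.949). At least 100 copies were found for 0.580% of members and 4.21% of the flanking windows. The other peaks were also below their own flanks in the share with at least 2 copies (-7.65 points, -8.28 to -7.01). The study's methods state that reads of low mapping quality were removed, whereas flanking windows were placed without regard to reads. The part of this filter in the differences from flanks was not tested.

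H3K4me1 covered few members. In BT474 an island of the mark overlapped 11.9% of members in replicate 1 and 11.2% in replicate 2, or 11.6% ± 0.556 (SD, n = 2). In SKBR3 the shares were 11.8% and 12.1%, or 12% ± 0.153 (SD, n = 2). The lines overlapped, and the mean difference was -0.398 points. With members at or above the median score of the list it was 1.05 points and with as many peaks as the vehicle list 1.20. Subtracted by replicate number it was 0.103 points for number 1 and -0.899 for number 2. The numbers name separate libraries, so this pairing is arbitrary and its spread was not used. Of members, 1969 (9.67%) lay in islands of both BT474 replicates, 714 (3.51%) in both of BT474 and neither of SKBR3, 760 (3.73%) in the reverse, 1035 (5.09%) in all 4 libraries and 16298 (80.1%) in none. The shares marked in 1 line alone (intervals 3.26 to 3.77 for BT474 and 3.48 to 4.0 for SKBR3) overlapped.

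The other peaks were in H3K4me1 of BT474 in 13.6% and 12.9%, above the members by 1.60 points (interval of members minus other peaks -2.45 to -0.775) and 1.71 (-2.54 to -0.902). The difference depended on how scores were treated. Within the 10 bins of the list by score, weighted by the members in each bin, it was -1.41 points (-2.59 to -0.234) in replicate 1 and -1.50 (-2.64 to -0.362). Weighted by both sets (members times other peaks over all peaks of a bin), which gives the bins of higher score more weight, it was -0.264 (-1.28 to 0.751) and -0.570 (-1.56 to 0.422). The members' share was the lower in 6 of 10 bins in each replicate. In replicate 2 it was 16% against 12.4% in bin 2, of high scores, and 9.03% against 14.6% in bin 10, of the lowest. With peaks at or above the median score the mean difference was -0.0361 points, and the 2 replicates' intervals together ran from -1.18 to 1.14. With only as many peaks as the vehicle list it turned to 1.13 points in favour of the members (both intervals together -0.521 to 2.87). The flanking windows of the members were in islands in 12.6% and 12.1%, and members minus flanks was -0.690 points (-1.18 to -0.204) and -0.946 (-1.42 to -0.471). With flanks 2 kb away the mean difference was -0.141 (both intervals together -0.546 to 0.277). With as many peaks as the vehicle list it was 0.494 (both together -1.15 to 2.16). No excess of the mark over the surroundings was found at the members in any of the 4 libraries. Islands that held a member were longer than all islands, with medians of 3.8 and 4.0 kb against 2.2 kb in BT474, and an island of greater length is more likely to be met.

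The upper members were in H3K4me1 of BT474 more often than the lower members, in 13.3% against 10.7% (difference 2.62 points, 1.73 to 3.52) in replicate 1 and 12.4% against 9.91% (2.53, 1.66 to 3.4) in replicate 2. With the members cut into 10 equal bins by score, the share fell from 15.9% and 15% in the highest bin to 10.6% and 9.29% in the lowest. In SKBR3 the upper and lower members had 12.3% and 11.4% (0.803 points, -0.0846 to 1.69) in replicate 1 and 12.3% and 11.8% (0.513, -0.382 to 1.41) in replicate 2. The difference between the lines, as the mean over replicates of the 2 contrasts, was 1.92 points (95% normal interval over members 1.09 to 2.74). Members in both BT474 and neither SKBR3 replicate made up 4.12% of the upper members (3.75 to 4.53) and 2.91% of the lower (2.60 to 3.25).

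This contrast lay largely in the surroundings. The windows 10 kb to either side of the upper members were in BT474 islands more often than those of the lower members, by 1.95 points (1.24 to 2.65) and 1.77 (1.08 to 2.46). Once each member's own flanks were subtracted, the upper exceeded the lower members by 0.679 points (-0.294 to 1.65) and 0.762 (-0.189 to 1.71), and the intervals held zero. In SKBR3 the same values were 0.19 (-0.724 to 1.1) and -0.25 (-1.17 to 0.666), with intervals that overlapped those of BT474. In the flanks too the contrast was larger in BT474 than in SKBR3, by 1.17 points (0.539 to 1.80). Both are shares of regions of 2 cell lines with 2 libraries each, so the intervals cover the counting of regions and not the variation between cultures.

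**Figure D4:**
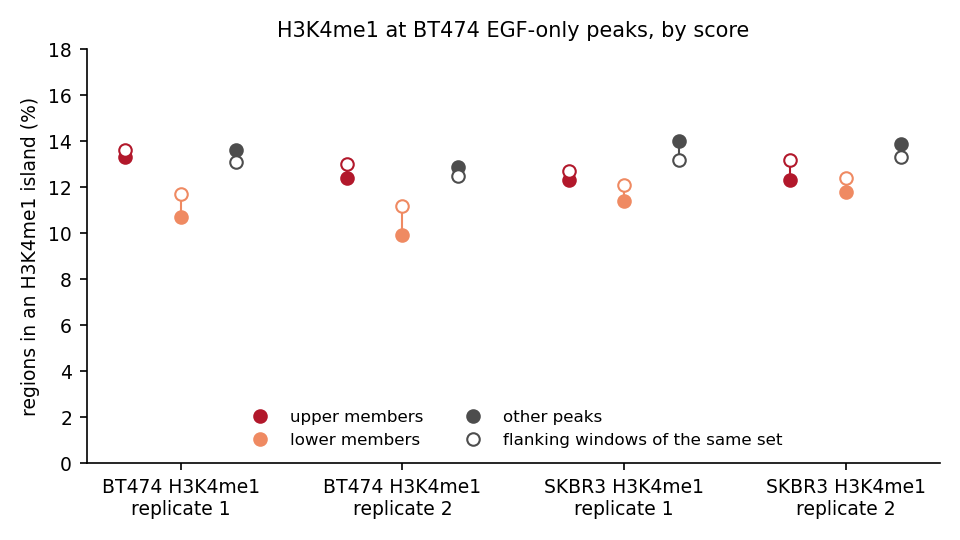
Share of regions in an H3K4me1 island (vertical axis, percent) in each of the 4 H3K4me1 libraries (horizontal axis), for the upper members, the lower members and the other peaks of the BT474 EGF list (filled points), each joined to its flanking windows 10 kb away (open points). In BT474 the upper members (13.3% and 12.4%) lie above the lower members (10.7% and 9.91%), and their flanks are ordered in the same way.

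**Figure D5:**
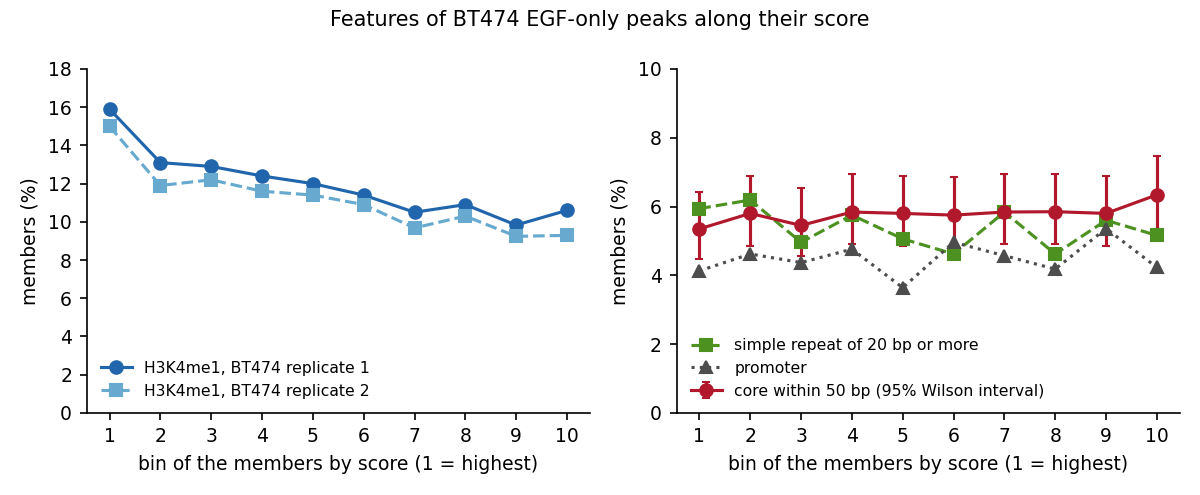
Share of members (vertical axes, percent) in each of 10 equal bins of the members by score (horizontal axes, 1 is the highest) that lie in an H3K4me1 island of BT474 (left, 2 replicates) or hold the core within 50 bp, a simple repeat or a promoter (right). H3K4me1 falls from 15.9% and 15% to 10.6% and 9.29%, whereas the core stays between 5.35% and 6.34%.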

How the data were processed

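The data comprised 4 HER2 ChIP-exo lists (BT474 and SKBR3, vehicle and EGF) and 4 H3K4me1 ChIP-seq lists (2 replicates a line), grouped by the line, agent and antibody that the labels give. The 2 input samples were not analysed here. The study's methods state mapping with bowtie2 to hg19, peak calling with MACS2 for HER2 and with SICER for H3K4me1, and removal of blacklisted regions and of regions of high input signal, whereas the submitters' processing notes name BWA 0.5.9, MACS 1.4.1 and SICER 1.1. HER2 peaks carry a score, deposited by the authors in steps of 0.5, on a scale that is not given in the sources used here, and only within the BT474 EGF list. H3K4me1 islands carry read counts as deposited by the authors, summing to 15.1 to 18.7 (in units of 1000000 reads) per library.

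Members were the BT474 EGF peaks that overlapped no peak of the other lists by at least 1 bp. The members and the gene lists were chosen with earlier results of these data known. Sequence came from GRCh37 and genes from GENCODE release 44 mapped to it, which may differ from the annotation the study used. Features were assigned by the midpoint in the order promoter, exon, intron, intergenic. Flanking windows had the width of the member. Differences between shares of peaks were given with 95% Newcombe intervals and those between members and flanks with 95% normal intervals over members. Peaks are not replicates of a condition and intervals cover counting error only, so no p-value was computed. Genes were named by rule as those at the 10 members of highest score (within 100 kb), the 10 with the most members, the 10 highest promoter members with H3K4me1, at most 5 per list with the highest scores, and those at the 5 largest chains. Members and genes named outside that rule, and genes named as having no member, were chosen after their values were seen. Code was tested on simulated data (Python 3.11.15, numpy 2.4.6, pandas 2.3.3, pysam 0.24.0, matplotlib 3.10.9). The alternatives changed the overlap, the score threshold, the length of the list, the flanks, the promoter, the repeat length, the window of the core and the H3K4me1 replicate. Some items are not reported here.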

Additional observations from a re-analysis of the deposited data

Results flagged for a closer look

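The contrast of H3K4me1 between the upper and the lower members by score differed between the cell lines, by 1.92 points (95% normal interval over members 1.09 to 2.74), which is the only value that met a rule for a closer look. In BT474 these differed by 2.62 and 2.53 points and in SKBR3 by 0.803 and 0.513, so the values of the 2 lines were apart. The intervals of BT474 replicate 2 (1.66 to 3.4) and SKBR3 replicate 1 (-0.0846 to 1.69) overlapped. The same contrast in the flanking windows differed by 1.17 points (0.539 to 1.80). The interval counts regions and not cultures.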

How the results depend on the processing

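Of 100 alternative values, 74 kept their direction and their side of the interval, or moved within the error. All 7 alternatives of the H3K4me1 contrast between upper and lower members, all 8 of the core over the flanks and all 8 of the repeats over the flanks were among these. With peaks at or above the median score only, the share of the list called only in BT474 EGF was 51.5%, the members' H3K4me1 difference from other peaks -0.0361 points, that from flanks -0.225, BT474 minus SKBR3 1.05, members with another within 10 kb 7.97% and genes with a member 3544. With only as many peaks as the vehicle list these were 35.5%, 1.13, 0.494, 1.20, 4.12% and 1672. Within 10 equal bins of the list by score, added after seeing the data, the H3K4me1 difference from other peaks was -0.417 when weighted by both sets (-1.46 by members), and with flanks at 2 kb that from flanks was -0.141. Asking for 50% cover gave a share of 70.1% and a repeat difference between upper and lower members of 0.652 points, and widening the other lists by 500 bp gave 68.9%. Repeats of at least 15 bases gave -1.23 against other peaks and 1.20 between upper and lower members, and at least 30 bases 0.530 against other peaks. Within 20 bp the core gave -0.370 against other peaks and -1.34 between upper and lower members. Promoters of protein-coding genes alone gave -0.542 between upper and lower members. Members within 50 kb of another were 55.1% and within 1 kb 2.21%, and genes with a start site within 10 kb of a member 4831. The causes were not tested beyond the fewer peaks that these settings leave.

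Without replicate 1 or 2, the H3K4me1 difference was -1.71 to -1.60 points against other peaks, -0.946 to -0.690 against flanks and 2.53 to 2.62 between upper and lower members. For BT474 minus SKBR3, with the same replicate number left out of both lines, it was -0.899 to 0.103. No paired analysis was possible because the H3K4me1 replicate numbers name separate libraries and the shares compared between the lines come from no test. The missing depth and replicates of the HER2 libraries limit all counts, since more peaks are called in a deeper library.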
